A study of Mus musculus with 2 samples.

Results

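The proliferation genes are 36 genes whose RNA marks cells that copy their DNA or divide, chosen by name: Mki67, Top2a, Pcna, Mcm2 to Mcm7, Tyms, Rrm1, Rrm2, Cdk1, Ccna2, Ccnb1, Ccnb2, Ccne1, Ccne2, Cdc20, Birc5, Bub1, Bub1b, Aurka, Aurkb, Plk1, Cenpe, Cenpf, Ube2c, Tpx2, Nusap1, Kif11, Kif23, Hmmr, Stmn1, Hells and Gins2. All 36 were found among the 32285 genes of the count tables, each under 1 identifier. They were read in pancreatic islets of NOD mice, a strain that develops autoimmune diabetes as lymphocytes enter its islets. The mice were 5 weeks old when feeding began and received a diet named HAMS or a diet named HAMSAB for 5 weeks. Each diet is 1 droplet library of single cells (Chromium 3′ kit), the labels do not give how many mice were pooled in it, and both diets share the NOD background, and HAMS is taken as the reference here. With 1 library per diet, no difference between diets has a replicate check. Intervals are at 95% and cover only counting error, and intervals of levels treat UMIs as independent although few cells can hold many of them.

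A dividing cell passes from a growth phase into S phase, in which the genome is copied, and then through G2 into mitosis, in which the chromosomes are parted. Genes of the replication machinery are transcribed mainly around the start of S phase, and genes of the spindle, the chromosomes and the mitotic kinases mainly in G2 and mitosis. In the islets of young NOD mice, dividing T and B cells are part of the infiltrate, and beta cells, which make insulin, divide rarely. By this order, 14 members count here as S genes, 21 as G2/M genes and Stmn1, a tubulin-binding protein that some resting cells also make, as neither. A cell with 2 or more UMIs (unique molecular identifiers, 1 per captured RNA molecule) over the 36 members is called a cycling cell.

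The files held 4352 HAMS and 5022 HAMSAB barcodes with 3599756 and 4254040 UMIs, and 4185 and 4628 cells were kept, those with 200 or more genes and no more than 20% of UMIs from mitochondrial genes. The median depth was 704 UMIs per kept cell in HAMS and 705 in HAMSAB, and 6 barcodes occurred in both libraries. Cells were clustered without the members and without other cell cycle genes, and clusters were named X-like from marker genes. Cluster 3, led by Il1r2 and other genes that are no fixed markers, and cluster 10, led by the fibroblast gene Col1a1 and the vessel genes Flt1 and Kdr, carry no name. The class sizes were unequal: T-like and B-like cells made up 12.1% of the kept HAMS cells and 28.9% of the kept HAMSAB cells, and the 3 endocrine classes (alpha-like, beta-like and delta-like) 56.1% and 29.8%.

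Cycling cells lay mainly among the lymphocytes. Of T-like cells, 229 of 317 in HAMS (72.2%, interval 67.0 to 77.1) and 450 of 694 in HAMSAB (64.8%, 61.2 to 68.4) held 2 or more member UMIs. Of B-like cells, 112 of 190 in HAMS (58.9%, 51.6 to 66.0) and 340 of 642 in HAMSAB (53.0%, 49.0 to 56.9) did. Plasma-like cells, the antibody-secreting descendants of B cells, followed with 6 of 21 (28.6%, 11.3 to 52.2) and 21 of 61 (34.4%, 22.7 to 47.7). T-like and B-like cells together were 63.7% of the cycling cells in HAMS and 72.7% in HAMSAB, and they held 74.8% and 79.7% of all member UMIs.

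Macrophage-like cells, cDC-like cells and cluster 3 lay below the lymphocytes and above the endocrine classes. Among cDC-like cells, named from markers of conventional dendritic cells, 12 of 125 (9.60%, 5.06 to 16.2) were cycling in HAMS and 40 of 183 (21.9%, 16.1 to 28.6) in HAMSAB. Macrophage-like cells stood at 34 of 336 (10.1%) and 55 of 472 (11.7%), and cluster 3 at 74 of 678 (10.9%) and 100 of 905 (11.0%). In pDC-like cells, named from markers of plasmacytoid dendritic cells, 0 of 34 cells in HAMS, which allows a share of up to 10.3%, and 1 of 71 in HAMSAB (1.41%) were cycling. The pDC-like cells were also the shallowest of these, with medians of 473 and 443 UMIs.

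Endocrine cells had low shares, though not below those of the pDC-like cells. Beta-like cells stood at 39 of 1349 (2.89%, 2.06 to 3.93) in HAMS and 37 of 739 (5.01%, 3.55 to 6.84) in HAMSAB. Alpha-like cells, which make glucagon, stood at 12 of 543 (2.21%) and 10 of 302 (3.31%), and delta-like cells, which make somatostatin, at 9 of 454 (1.98%) and 12 of 338 (3.55%). A single member UMI was found in 8.61% to 13.4% of the cells of these 3 classes, and the part of free RNA from other cells in these UMIs was not tested. Ductal-like cells stood at 2 of 75 (2.67%) and 16 of 184 (8.70%), and cluster 10 at 6 of 63 and 3 of 28.

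**Figure D1:**
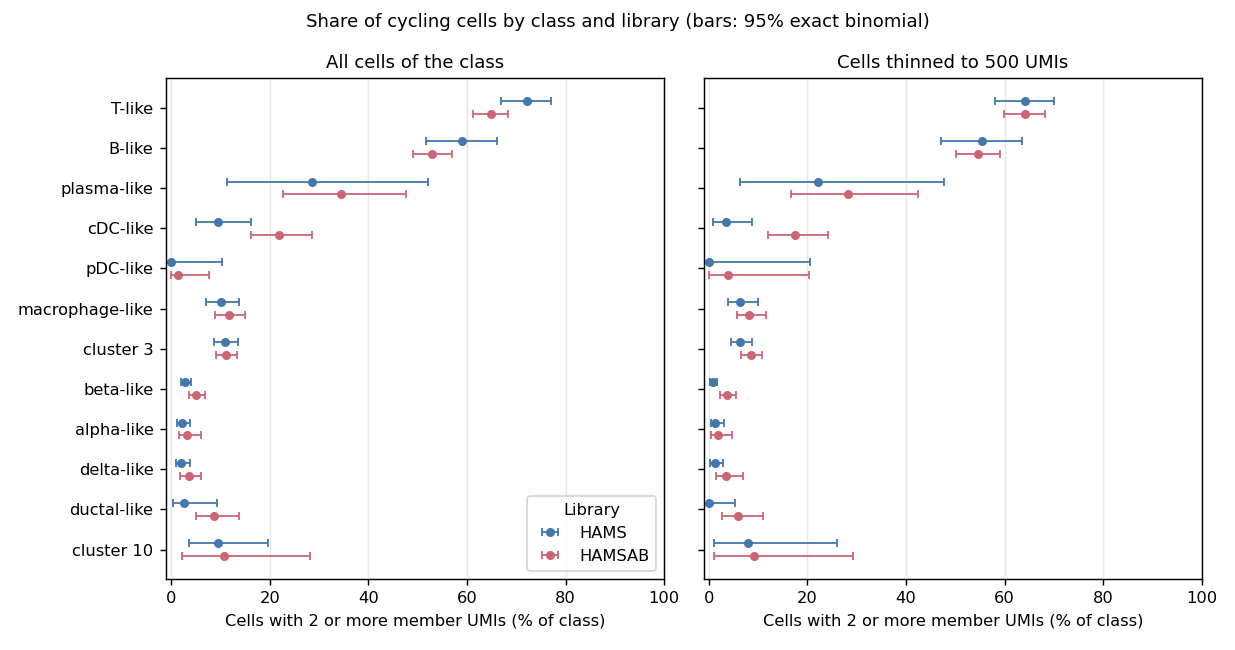
The share of cells with 2 or more member UMIs (x axis, percent of the class) by class and library, for all cells and for cells thinned to 500 UMIs, with 95% exact binomial intervals. T-like cells (72.2% and 64.8%) and B-like cells (58.9% and 53.0%) stand far above beta-like cells (2.89% and 5.01%), and the T-like libraries meet at 64.2% and 64.1% after thinning.

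Depth per cell differed between the libraries within classes and moved with these shares. The median was 961 UMIs in HAMS and 785 in HAMSAB for T-like cells, 897.5 and 769 for B-like cells, and 671 and 802 for beta-like cells. After thinning each cell to 500 UMIs, which left out 52 and 151 shallower T-like cells, the T-like shares were 64.2% (170 of 265) and 64.1% (348 of 543), so the higher unthinned share in HAMS was no longer seen. B-like cells stood at 55.4% and 54.6%, macrophage-like cells at 6.41% and 8.26%, and delta-like cells at 1.18% and 3.60%. Within each library, the thinned T-like and B-like shares lay above those of macrophage-like cells, cDC-like cells and cluster 3, and these above those of the 3 endocrine classes.

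Most cycling lymphocytes held far more than the minimum of 2 UMIs. In T-like cells, 29.7% of HAMS and 22.5% of HAMSAB cells carried 10 or more member UMIs, up to 52 in a cell in each library. In B-like cells the values were 25.3% and 20.2%, with up to 34 and 70 UMIs in a cell. The median cycling T-like cell held 8 and 6.5 member UMIs, the median cycling B-like cell 7.5 and 7, and the median cycling macrophage-like cell or cell of cluster 3 held 3 in either library. Just outside the call, 10.7% and 11.1% of T-like cells held exactly 1 member UMI, and 17.0% and 24.1% held none.

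**Figure D2:**
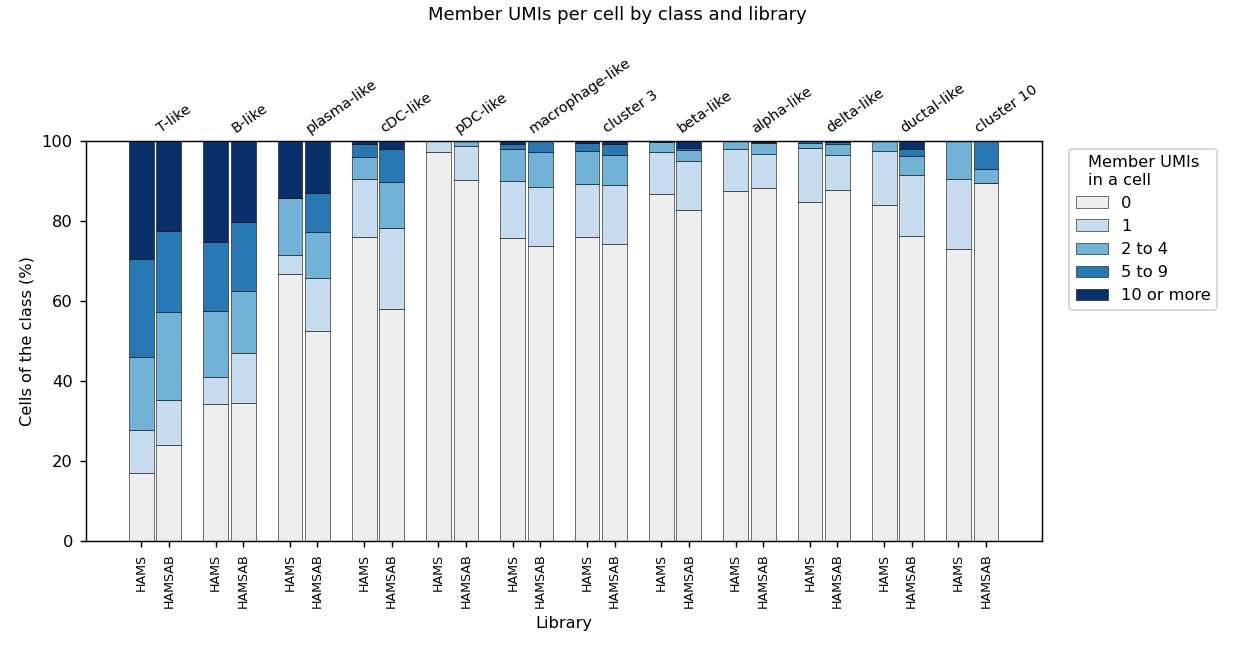
Member UMIs per cell, as stacked shares of cells (y axis, percent of the class) for each class and library. Cells with 10 or more UMIs (darkest) make up 29.7% and 22.5% of T-like and 25.3% and 20.2% of B-like cells, while in alpha-like cells 87.3% and 88.1% held none.

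Over all cells, cycling cells were 535 of 4185 in HAMS (12.8%, 11.8 to 13.8) and 1087 of 4628 in HAMSAB (23.5%, 22.3 to 24.7). The members together stood at 1313 CPM (UMIs of a gene per 1000000 UMIs of the same cells) in HAMS and 2352 in HAMSAB, a log2 ratio of 0.84 (0.79 to 0.89). The class mix moved with this difference: with the HAMS share of each class but the HAMSAB class sizes, 23.8% of cells would be cycling, and with the HAMSAB shares but the HAMS class sizes, 13.6%. Of the 36 members, 27 had a ratio whose interval lay above 0 and 0 had one below 0, where 17.1% and 18% of all genes with 20 or more UMIs in the libraries together did. Only Ccne1 (7.36 CPM in HAMS and 6.60 in HAMSAB) and Gins2 (22.1 and 18.3 CPM) were lower in HAMSAB, both with intervals that include 0. The median log2 ratio was 0.73 for the members and -0.019 for all 12321 genes tested.

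Among the S members, the replication clamp Pcna, which holds DNA polymerase on the template, was found in 34.1% of T-like cells in HAMS and 28.8% in HAMSAB, at 499 and 472 CPM. B-like cells held Pcna at 300 and 331 CPM, beta-like cells at 43.4 and 44.6 CPM. Mcm2 to Mcm7 code for the 6 subunits of the helicase that opens DNA at replication origins. In T-like cells the subunits stood between 84.8 CPM (Mcm2) and 317 CPM (Mcm4) in HAMS and between 46.6 CPM (Mcm2) and 420 CPM (Mcm4) in HAMSAB, so the same subunits marked both ends. UMIs of 1 complex were thus captured unevenly, in either library.

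Genes that supply the building blocks of DNA followed the same classes. Rrm1 and Rrm2 code for the large and the small subunit of ribonucleotide reductase, and Tyms for thymidylate synthase. Rrm2 stood at 259 and 315 CPM in T-like, 166 and 238 CPM in B-like, and 2.77 and 16.2 CPM in beta-like cells (3 and 12 UMIs). Rrm1 was spread more widely, with 203 and 222 CPM in T-like cells, 28.6 and 14.9 CPM in beta-like cells and 46.7 and 36.7 CPM in delta-like cells. T-like and B-like cells held 86.0% of all Rrm2 UMIs but 70.3% of all Rrm1 UMIs. Hells, a chromatin remodeller of the replicating genome, had 88.7% of its UMIs in T-like and B-like cells, and Ccne1 and Ccne2, the E cyclins that start S phase, 84.9% and 69.7%.

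Of the G2/M members, Top2a and Mki67 were captured most often. Top2a, the topoisomerase that untangles sister chromosomes, had 681 UMIs in HAMS and 1612 in HAMSAB, and Mki67, the coat protein of mitotic chromosomes known as Ki-67, had 511 and 1324. Top2a was found in 48.9% and 40.5% of T-like cells (913 and 949 CPM) and in 41.1% and 37.9% of B-like cells (849 and 975 CPM). Mki67 stood at 644 and 745 CPM in T-like and at 581 and 774 CPM in B-like cells. In macrophage-like cells Mki67 stood at 135 and 208 CPM and Top2a at 101 and 111 CPM, both above every endocrine class.

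The other G2/M members were captured far less often, with 28 UMIs (Aurka) to 480 UMIs (Cenpf) over both libraries. They include the mitotic kinase Cdk1 and its cyclins Ccna2, Ccnb1 and Ccnb2, the spindle checkpoint kinases Bub1 and Bub1b, the Aurora kinases, Plk1, the centromere proteins Cenpe and Cenpf, the spindle proteins Tpx2, Nusap1, Hmmr, Kif11 and Kif23, and Cdc20 and Ube2c, which direct mitotic proteins to destruction. Their share of UMIs in T-like and B-like cells ran from 67.9% (Aurka) to 93.7% (Ccnb1). Birc5, a subunit of the Aurora B complex, had 1 of its 235 UMIs in an endocrine cell (0.426%), and its beta-like level was 0 UMIs in both libraries. Stmn1 had 77.5% of its 275 UMIs in T-like and B-like cells, a share within the range of the S as well as the G2/M members.

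**Figure D3:**
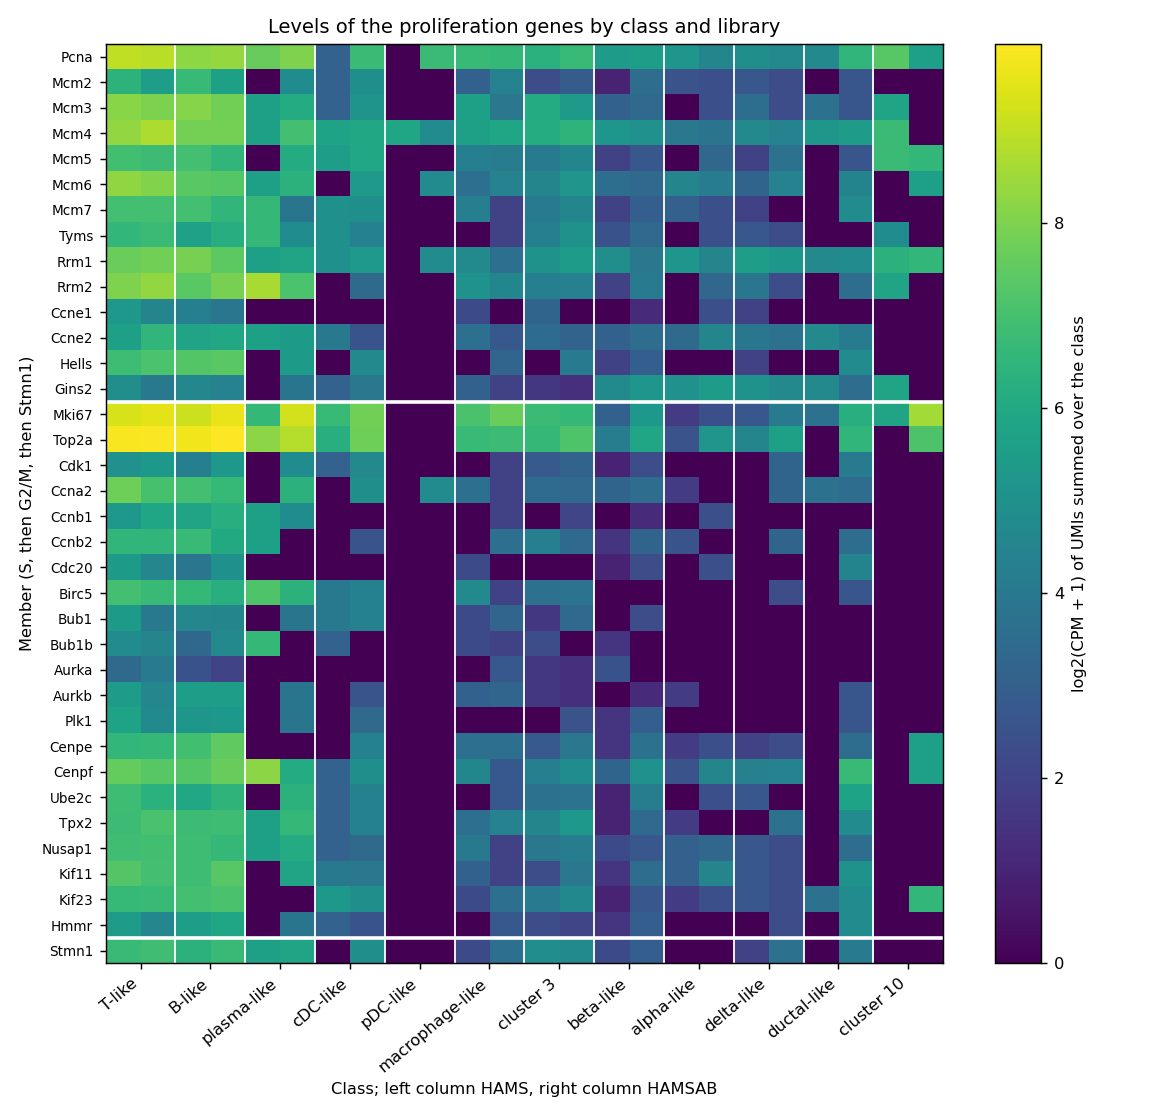
Levels of the 36 members as log2(CPM + 1) of UMIs summed over the cells of a class (color), with the S members above, the G2/M members below them and Stmn1 last, HAMS left and HAMSAB right within each class. The T-like and B-like columns are bright for nearly all members, and the Gins2 row is about as bright in beta-like (25.9 and 36.5 CPM), alpha-like (31.6 and 44.1 CPM) and delta-like cells (33.0 and 24.5 CPM) as in T-like cells (29.1 and 15.1 CPM).

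Gins2 differed from the other 35 members in where its UMIs lay. It codes for a subunit of the GINS complex, which works with the Mcm helicase at the replication fork. Of its 153 UMIs, 62.7% were in the 3 endocrine classes and 26.8% in T-like and B-like cells, whereas no other member had more than 17.9% in the endocrine classes. Its level was 29.1 and 15.1 CPM in T-like cells and 23.1 and 20.1 CPM in B-like cells, below or near its levels in alpha-like cells of 31.6 CPM (16.8 to 54.0) and 44.1 CPM (21.2 to 81.2). The intervals overlap between these classes. The gene lies on chromosome 8 of mm10 (chr8:120578633-120589304, minus strand) and overlaps Gse1 and Gm20388, both on the other strand in the GENCODE annotation. Whether counting used strand is not given in the sources used here, and a part of these overlaps in the Gins2 UMIs was not tested. Leaving Gins2 out of the members moved the beta-like share to 2.74% and 4.60%.

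T-like and B-like cells differed at a few S members in both libraries. Pcna was higher in T-like cells by 0.73 (0.33 to 1.16) on the log2 scale in HAMS and by 0.51 (0.26 to 0.77) in HAMSAB. Mcm6 was higher there by 0.89 and 0.77, and Rrm2 by 0.64 and 0.41, with all 4 intervals above 0. Of the members with at least 20 UMIs in each library, these 3 of 13 S members and 0 of 18 G2/M members had intervals above 0 in both, where 8.76% of all genes tested did, and 0 had intervals below 0 in both, where 9.14% of all genes did. In HAMS read alone, 3 of 13 S members and 2 of 18 G2/M members, Ccna2 (0.76, 0.12 to 1.44) and Ube2c (0.92, 0.015 to 1.94), were higher in T-like cells, where 12.7% of all genes were, and 0 were lower, where 13.2% were. In HAMSAB read alone, 7 of 14 S members and 0 of 20 G2/M members were higher in T-like cells, where 14.3% of all genes were, and 3 G2/M members were lower, where 15.9% were. The 3 are Cenpe (-0.88, -1.33 to -0.44), Aurkb (-0.99, -1.94 to -0.087) and Hmmr (-1.25, -2.18 to -0.38). In HAMS their ratios were -0.34, -0.08 and -0.08, with intervals that include 0.

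The starts of the members carry sequence words that split by phase, shown here because S and G2/M members are read apart in the results that follow. RefSeq promoter windows of GRCm38.p6, from 250 bases before to 50 after the start of a gene, were matched for 29 of the 36 members by symbol: 11 S and 18 G2/M members. They were searched on both strands for the E2F words TTTCCCGC and TTTGGCGC, the CHR word TTTGAA (cell cycle genes homology region) and the word CCAAT, and matches of different words may share bases. An E2F word was in 5 of 11 S windows (Mcm3, Mcm5, Mcm6, Mcm7 and Hells), in 0 of 18 G2/M windows and in 1.80% of the windows of all 27025 genes. The CHR word was in 1 of 11 S windows (Mcm2), in 13 of 18 G2/M windows (72.2%) and in 20.2% of all genes. CCAAT was in 8 of 11 S and 16 of 18 G2/M windows against 41.1% of all genes. A CHR word and CCAAT together were in 1 of 11 S windows, in 13 of 18 G2/M windows (72.2%) and in 7.97% of all genes. As textbook background, E2F factors act at S phase genes, and the complexes known as DREAM and MuvB bind CHR words at G2/M genes. A match of letters is a description of the window and not of binding in these cells.

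Examples are 2 S windows with E2F words (Mcm5 and Mcm6), the Pcna window, which held neither an E2F nor a CHR word, and 3 G2/M windows with CHR words (Mki67, Top2a and Cdk1), given from 5′ to 3′ on the strand of the gene. Capitals mark every match on either strand to the E2F, CHR and CCAAT words. The windows are chr8:75109259-75109558 (Mcm5, plus strand), chr1:128359656-128359955 (Mcm6, minus), chr2:132253131-132253430 (Pcna, minus), chr7:135716330-135716629 (Mki67, minus), chr11:99024140-99024439 (Top2a, minus) and chr10:69352863-69353162 (Cdk1, minus).
Mcm5: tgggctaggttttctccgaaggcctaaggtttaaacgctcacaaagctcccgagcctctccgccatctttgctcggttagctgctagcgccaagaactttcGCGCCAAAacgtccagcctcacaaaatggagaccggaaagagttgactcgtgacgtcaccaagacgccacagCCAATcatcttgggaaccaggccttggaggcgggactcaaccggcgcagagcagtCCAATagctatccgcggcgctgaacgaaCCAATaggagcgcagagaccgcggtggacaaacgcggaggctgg
Mcm6: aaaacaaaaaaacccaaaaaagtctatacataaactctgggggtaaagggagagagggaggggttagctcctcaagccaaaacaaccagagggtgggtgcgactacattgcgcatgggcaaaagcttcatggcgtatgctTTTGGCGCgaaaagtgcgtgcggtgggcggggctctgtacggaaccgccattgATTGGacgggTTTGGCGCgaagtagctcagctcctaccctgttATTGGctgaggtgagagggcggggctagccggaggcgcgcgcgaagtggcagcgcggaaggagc
Pcna: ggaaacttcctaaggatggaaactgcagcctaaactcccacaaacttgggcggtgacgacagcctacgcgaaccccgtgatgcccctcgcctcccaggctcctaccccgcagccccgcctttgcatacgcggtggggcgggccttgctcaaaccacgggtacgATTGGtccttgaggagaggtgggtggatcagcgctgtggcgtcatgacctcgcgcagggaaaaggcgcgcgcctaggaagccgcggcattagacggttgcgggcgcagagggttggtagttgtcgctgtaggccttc
Mki67: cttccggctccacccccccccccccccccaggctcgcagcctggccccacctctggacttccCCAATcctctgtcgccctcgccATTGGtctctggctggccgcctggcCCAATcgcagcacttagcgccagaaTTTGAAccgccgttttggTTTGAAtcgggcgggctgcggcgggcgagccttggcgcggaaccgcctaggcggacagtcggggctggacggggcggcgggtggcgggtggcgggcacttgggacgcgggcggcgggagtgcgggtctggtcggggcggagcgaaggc
Top2a: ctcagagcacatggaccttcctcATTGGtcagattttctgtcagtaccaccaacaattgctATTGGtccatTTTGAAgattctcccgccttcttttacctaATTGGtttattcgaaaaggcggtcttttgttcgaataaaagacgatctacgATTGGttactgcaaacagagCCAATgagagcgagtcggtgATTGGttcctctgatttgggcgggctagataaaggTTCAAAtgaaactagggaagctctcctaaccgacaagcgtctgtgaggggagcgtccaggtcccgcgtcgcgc
Cdk1: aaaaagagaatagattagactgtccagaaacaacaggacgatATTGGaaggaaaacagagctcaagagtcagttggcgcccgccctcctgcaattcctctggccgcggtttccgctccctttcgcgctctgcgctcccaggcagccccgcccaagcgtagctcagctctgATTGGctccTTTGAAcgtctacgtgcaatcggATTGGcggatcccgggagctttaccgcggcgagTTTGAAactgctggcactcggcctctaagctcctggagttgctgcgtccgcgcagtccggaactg

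The balance of S and G2/M members differed between classes. In T-like cells, S members gave 44.2% of the S and G2/M UMIs in HAMS (1043 S and 1319 G2/M UMIs) and 45.7% in HAMSAB (1896 and 2253). In B-like cells they gave 41.9% in HAMS (38.9 to 45.0) and 36.8% in HAMSAB (35.2 to 38.5), a difference of -5.11 percentage points (-8.52 to -1.73). Macrophage-like cells, cDC-like cells and cluster 3 lay between 39.4% and 50.3%. The endocrine classes were higher in HAMS, with 72.9% S in beta-like, 78.8% in alpha-like and 74.0% in delta-like cells, and lower in HAMSAB, with 47.7%, 61.2% and 53.2%. A few cells with 10 or more member UMIs, a limit chosen after the values were seen, entered these shares. Without them, beta-like cells held 188 S and 43 G2/M UMIs in HAMS and 121 and 43 in HAMSAB. Alpha-like cells then held 67 and 18 UMIs in HAMS and 38 and 11 in HAMSAB. Delta-like cells held 65 and 21 in HAMS and 36 and 30 in HAMSAB.

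**Figure D4:**
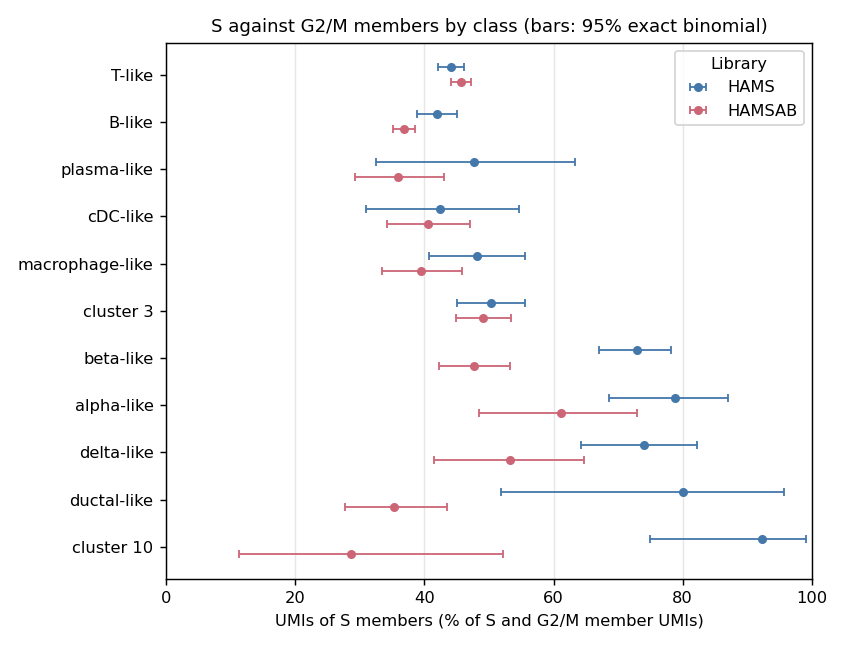
The share of S member UMIs among S and G2/M member UMIs (x axis, percent) by class and library, with 95% exact binomial intervals; pDC-like cells, which held few member UMIs, are left out. T-like, B-like, macrophage-like and cDC-like cells and the unnamed cluster 3 lie near or below 50.3% in both libraries. The beta-like libraries stand apart at 72.9% (HAMS) and 47.7% (HAMSAB). In HAMSAB, 13 beta-like cells with 10 or more member UMIs held 130 of the 173 G2/M UMIs of that class.

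Within single cycling lymphocytes, S and G2/M members were mostly found together. Of the cycling T-like cells, 80.3% in HAMS and 72.2% in HAMSAB held UMIs of both groups, 8.73% and 15.6% of S members alone, and 10.9% and 12.0% of G2/M members alone. Cycling B-like cells held both in 77.7% and 78.5%. In the 39 cycling beta-like cells of HAMS the picture was different: 23 (59.0%) held S members alone, 5 G2/M members alone and 11 both. The 37 cycling beta-like cells of HAMSAB split into 13, 5 and 19. The number of member UMIs per cell moved with this split, with a median of 2 UMIs per cycling beta-like cell in HAMS and 4 in HAMSAB.

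T-like cells of the 2 diets held the members at the same summed level within counting error, 5826 CPM (5596 to 6064) in HAMS and 5808 CPM (5634 to 5985) in HAMSAB, a log2 ratio of -0.0047 (-0.077 to 0.068). Among the 35 members with at least 20 UMIs there, 2 had intervals above 0, where 7.8% of all genes did, and 4 had intervals below 0, where 6.18% did. The 2 higher in HAMSAB were Ccne2 (48.4 and 91.9 CPM, log2 ratio 0.92) and Mcm4 (317 and 420 CPM, 0.40). The 4 lower were Bub1 (17 and 11 UMIs, -1.45), Plk1 (22 and 19 UMIs, -1.03), Mcm2 (84.8 and 46.6 CPM, -0.86) and Ccna2 (211 and 129 CPM, -0.71). The median ratio was -0.08 over the members and 0.01 over all genes, and 16 members lay above 0 and 19 below.

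T-like cells with a coreceptor UMI gave a finer view of cytotoxic (Cd8a or Cd8b1) and helper (Cd4) cells. Of the cells with a Cd8a or Cd8b1 UMI and no Cd4 UMI, 50 of 54 in HAMS (92.6%, 82.1 to 97.9) and 70 of 93 in HAMSAB (75.3%, 65.2 to 83.6) were cycling. Cells with Cd4 alone were cycling in 10 of 14 (71.4%, 41.9 to 91.6) and 17 of 33 (51.5%, 33.5 to 69.2). Depth moved with the grouping: medians were 1666 and 1259 UMIs for the first group, 1222 and 727 for cells with Cd4 alone, and 917 and 748.5 for T-like cells without any coreceptor UMI. Thinned to 500 UMIs, the shares were 78.8% and 67.9% with Cd8a or Cd8b1 and 80.0% (8 of 10) and 48.1% (13 of 27) with Cd4. Foxp3, the factor of regulatory T cells, had a UMI in 6 cells in HAMS, all cycling, and in 19 in HAMSAB, of which 12 were cycling. The intervals of the Cd8 and Cd4 groups overlap in both libraries.

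B-like cells held the members at 4912 CPM (4621 to 5216) in HAMS and 5314 CPM (5138 to 5495) in HAMSAB, a log2 ratio of 0.11 (0.014 to 0.21). The G2/M members gave the difference in size, with a log2 ratio of 0.23 (0.10 to 0.36) against -0.08 (-0.24 to 0.083) for the S members. Of 31 members with at least 20 UMIs, Mki67 was above 0 (581 and 774 CPM, 0.41, 0.13 to 0.71), where 6.06% of all genes were, and Mcm2 below 0 (101 and 49.5 CPM, -1.04, -1.86 to -0.18), where 5.09% were. Mcm2 was lower in HAMSAB in both lymphocyte classes, as 1 of 31 members read here and 1 of 35 in T-like cells, so nothing is read from it. In plasma-like cells, with 21 and 61 cells, Mki67 was the 1 of 3 members with an interval above 0 (2 and 45 UMIs, 2.66, 0.72 to 5.74), where 6.58% of all genes were, and 0 lay below 0, where 5.41% did. Mki67 reached the minimum of 20 UMIs through HAMSAB, the library in which it was higher, so the count is a description only.

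Among the immune classes of the clustering used here, the cDC-like cells had the largest difference in cycling share between the libraries. With classes set per cell from its markers instead, plasma-like cells differed more, by 23.8 percentage points (13.8 to 32.9) against 10.2 in cDC-like cells. The cDC-like share was 12.3 percentage points higher in HAMSAB (3.88 to 19.9), and 14.0 points higher (6.78 to 20.9) after thinning, at 4 of 113 and 29 of 165 cells. Among cells of 500 or more genes the difference was 13.3 points with an interval that includes 0 (-7.59 to 30.7). The members stood at 555 CPM (435 to 698) and 1203 CPM (1056 to 1364), a log2 ratio of 1.12 (0.73 to 1.51). The 3 members that reached the minimum of 20 UMIs did so through HAMSAB, so nothing is read from their count, given beside the 6.61% of all genes with intervals above 0 and 5.89% below. They are Pcna with 1 and 22 UMIs (7.60 and 109 CPM, 3.84, 1.21 to 9.21), Top2a with 10 and 43 UMIs (76.0 and 213 CPM, 1.49) and Mki67 with 14 and 45 UMIs (106 and 223 CPM, 1.07). S and G2/M members were both higher, by 1.01 and 1.13. T markers had 0 UMIs in cycling cDC-like cells of either library (8 of 8 markers at 0), and B markers 0 and 3 UMIs, the latter in 1 cell. The cDC markers themselves stood at 428 and 677 CPM in cycling and 656 and 591 CPM in other cells. Beta markers were higher in cycling than in other cDC-like cells of HAMS (1925 against 585 CPM) and lower in HAMSAB (183 against 455 CPM), and their part in the result was not tested.

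Macrophage-like cells and cluster 3 differed less. The members stood at 703 and 727 CPM in macrophage-like cells, a log2 ratio of 0.048 (-0.23 to 0.33), and at 754 and 919 CPM in cluster 3, a ratio of 0.29 (0.094 to 0.48). In macrophage-like cells Mki67 had an interval above 0 (135 and 208 CPM, 0.63, 0.03 to 1.25) as the 1 of 4 members read there, where 6.96% of all genes did, and 0 were below, where 6.65% were. In cluster 3 Top2a did (97.8 and 144 CPM, 0.56, 0.038 to 1.10) as the 1 of 15, where 8.84% of all genes did, and 0 were below, where 6.87% were.

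In beta-like cells the members stood at 246 CPM (217 to 277) in HAMS and 454 CPM (407 to 506) in HAMSAB, a log2 ratio of 0.89 (0.65 to 1.12). The G2/M members were higher by 1.84 (1.43 to 2.25), from 71 to 173 UMIs, and the S members by 0.28 (-0.037 to 0.59), from 191 to 158 UMIs among fewer cells. Mki67 stood at 8 and 28 UMIs (7.39 and 37.9 CPM, 2.36, 1.19 to 3.70), Cenpf at 9 and 23 UMIs (8.31 and 31.1 CPM, 1.90, 0.74 to 3.20) and Top2a at 19 and 42 UMIs (17.5 and 56.8 CPM, 1.69, 0.88 to 2.56). These 3 of the 7 members with at least 20 UMIs had intervals above 0, where 10.7% of all genes did, and 0 had intervals below 0, where 9.03% did. The 3 reached 20 UMIs within HAMSAB alone, so the count is a description only. Pcna (43.4 and 44.6 CPM), Gins2 (25.9 and 36.5 CPM), Mcm4 (39 and 23 UMIs) and Rrm1 (28.6 and 14.9 CPM) had intervals that include 0.

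The extra UMIs lay in few cells. With limits chosen after the values were seen, 4 of 1349 beta-like cells in HAMS (0.297%, 0.081 to 0.757) and 17 of 739 in HAMSAB (2.30%, 1.35 to 3.66) held 5 or more member UMIs, and 2 (0.148%) and 13 (1.76%) held 10 or more. The 13 cells gave 50.9% of the member UMIs of all beta-like cells in HAMSAB, so the UMIs are not independent and the intervals of levels above are too narrow. Without the cells with 10 or more member UMIs, left out after the values were seen, the G2/M members of beta-like cells stood at 43 UMIs in each library, a log2 ratio of 0.60 (-0.048 to 1.24), and all members at 0.086 (-0.21 to 0.38). All 13 held no UMI of the T and B markers, 9 held none of any immune marker and the other 4 held 1 to 3 such UMIs. Top2a was found in 12 of them and Mki67 in 9. Their beta marker UMIs ran from 3 to 656 with a median of 161, where other beta-like cells of that library had a median of 77, so 1 of them showed nearly no beta marker. The 13 cells were also deeper, with a median of 1712 UMIs against 791 in beta-like cells of HAMSAB not called cycling. Their higher marker UMIs are thus not read as a higher marker level. Another of the 13 held 110 UMIs of delta markers beside 66 of beta markers. The 13 cells held 37 S and 130 G2/M UMIs. Just below the limit of 5, 35 and 20 beta-like cells held 2 to 4 member UMIs.

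T and macrophage markers moved with the call in the wider set of cycling beta-like cells, and B markers did so in HAMS and not in HAMSAB. T marker UMIs were found in 4 of 39 (10.3%) and 3 of 37 (8.11%) cycling beta-like cells but in 0.992% and 0.997% of the others, and B marker UMIs in 5.13% and 0% against 1.91% and 1.42%. Macrophage marker UMIs were found in 7.69% and 10.8% of them against 1.68% and 1.57%. Cycling beta-like cells were also deeper, with medians of 1190 against 661 UMIs in HAMS and 1531 against 791 in HAMSAB. A deeper cell more readily holds a UMI of any marker, and the part of depth in these shares was not tested. Of the 8 T markers, 6 were detected in the cycling beta-like cells of HAMS and 3 in those of HAMSAB. Without any cell that held a T or B marker UMI, an alternative added after the data were seen, 33 of 1305 (2.53%) and 34 of 719 (4.73%) beta-like cells were cycling, a difference of 2.20 points (0.54 to 4.15) against 2.12 points (0.41 to 4.09) with them. Without any cell that held a T, B, macrophage or cDC marker UMI, 31 of 1273 (2.44%) and 30 of 697 (4.30%) were, a difference of 1.87 points (0.25 to 3.78). The interval of the difference included 0 with at least 500 genes per cell (1.68, -2.04 to 5.63) and when classes were set per cell from marker UMIs (1.66, -0.18 to 3.83). Thinned to 500 UMIs, the shares were 0.847% (8 of 945) and 3.71% (22 of 593). Both beta-like clusters were higher in HAMSAB: cluster 7, led by Ins1 and Ins2, with 2.56% and 4.43%, and cluster 9, led by genes that include Iigp1 and Gbp4, with 5.08% and 6.20%, and the intervals overlap in both clusters.

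Alpha-like and delta-like cells held 207 and 296 CPM and 277 and 327 CPM of the members. Cells with 10 or more member UMIs numbered 0 of 543 and 1 of 302 among alpha-like and 1 of 454 and 1 of 338 among delta-like cells. The delta-like cell of HAMSAB among them held 0 UMIs of delta markers and 143 of beta markers, so its own markers do not bear out its class. In alpha-like cells 0 of 3 members with at least 20 UMIs had an interval that excludes 0, where 5.34% of all genes were above and 8.42% below, and in delta-like cells 0 of 2 did, where 7.63% and 4.83% were. The G2/M members were nevertheless higher in HAMSAB in both, by 1.39 (0.47 to 2.34, from 18 and 26 UMIs) and 1.04 (0.27 to 1.83, from 26 and 36 UMIs). In alpha-like cells 1 cell of HAMSAB held 15 of the 26 UMIs, and without it the ratio was 0.16 (-1.07 to 1.32); without the 2 delta-like cells with 10 or more member UMIs that ratio was 1.09 (0.24 to 1.97). In ductal-like cells the members stood at 185 CPM (15 UMIs) and 840 CPM (156 UMIs), a log2 ratio of 2.18 (1.42 to 3.05). The difference in their cycling share was 6.03 percentage points, with an interval that includes 0 (-1.29 to 11.4). In HAMSAB, 4 of the 184 ductal-like cells held 10 or more member UMIs, up to 26 in a cell, so the interval of the ratio is too narrow. Of the 16 cycling ductal-like cells in HAMSAB, 3 held T marker UMIs, and beta markers stood at 14040 CPM in them against 3043 CPM in the other ductal-like cells of that library, whose part in the result was not tested.

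Other cell cycle genes, which the call of a cycling cell did not use, were read in cycling against other cells of the same class and library. Cycling cells were deeper than the others. Their median was 1235 against 527.5 UMIs in T-like cells of HAMS and 1025.5 against 527.5 in HAMSAB. In B-like cells it was 1271 against 522.5 and 1120.5 against 544. In T-like cells, 28 of 29 further S genes and 38 of 41 further G2/M genes with at least 20 UMIs were higher in cycling cells in both libraries, where 33.8% of all genes outside the members were. In B-like cells 24 of 25 and 34 of 36 were, where 36.7% of all genes were. Pclaf, a partner of the Pcna clamp, stood at 181 CPM in other and 417 CPM in cycling T-like cells of HAMS, and at 47.4 and 501 CPM in HAMSAB. Uhrf1, which carries DNA methylation across replication, went from 217 to 450 CPM and from 94.7 to 523 CPM. Hmgb2, a chromatin protein of dividing cells, went from 797 to 2291 CPM and from 751 to 2164 CPM, and in B-like cells from 425 to 2140 CPM and from 425 to 2166 CPM.

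All 6 chromatin and tubulin genes (H2afz, Tuba1b, Tubb5, Hmgb1, Hmgn2 and Ran) were higher in cycling T-like and in cycling B-like cells of both libraries. Tubb5, a beta tubulin, stood at 6903 and 19452 CPM in other and cycling T-like cells of HAMS and at 5793 and 18061 CPM in HAMSAB. In beta-like cells Tubb5 was higher in cycling cells by 2.86 (2.70 to 3.02) over both libraries, Atad2 by 3.06, Smc4, a condensin subunit, by 3.36 and Hmgb2 by 2.42. In beta-like cells, 5 of 6 further S and 4 of 6 further G2/M genes with at least 20 UMIs were higher in both libraries, where 22% of all genes were. In cDC-like cells all 3 further S genes (Uhrf1, Slbp and Atad2) and all 3 further G2/M genes (Hmgb2, Smc4 and Lmnb1) were, where 28.3% of all genes were. In alpha-like cells 0 of 1 further S and 1 of 4 further G2/M genes were, beside 695 of 4286 genes outside the members. Of these S and G2/M genes, 0 had a pooled interval above 0 there, and 3 of 6 chromatin and tubulin genes were higher in both libraries. These few genes thus do not bear out the call of cycling alpha-like cells.

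Some genes that hold cells out of the cycle pointed the other way. Of 9 cycle brakes with at least 20 UMIs in T-like cells, 4 were lower and 1 higher in cycling cells in both libraries, where 27.1% of all genes were lower, and in B-like cells 5 of 8 were lower and 1 higher, where 27.7% were lower. Over both libraries, the median log2 ratio of the brakes was 0.19 in T-like and -0.75 in B-like cells, so the T-like list did not point down as a whole. Pooled intervals lay below 0 for 3 brakes in each class, where 11.4% and 12.7% of all genes did. They lay above 0 for 1 brake in each, where 9.84% and 15.7% did. The brake with an interval above 0 over both libraries was Rb1, the retinoblastoma gene, in T-like and Trp53, which codes for p53, in B-like cells. Btg1, an antiproliferative gene of resting lymphocytes, stood at 5218 and 2412 CPM in other and cycling T-like cells of HAMS and at 5678 and 2774 CPM in HAMSAB, log2 ratios of -1.11 and -1.03. In B-like cells its ratios were -1.28 and -1.34. Btg2 was lower by -0.83 and -0.73 in T-like and by -1.09 and -0.98 in B-like cells, and Cdkn1b, the inhibitor p27, by -0.79 and -0.65 and by -1.16 and -1.31, each with an interval below 0. In beta-like cells the pooled ratios of Btg1 and Btg2 were -0.22 (-0.45 to -0.010) and -0.62 (-0.84 to -0.40), and that of Cdkn1b was 0.047 (-0.32 to 0.40).

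Genes of cycle entry split within the list. In T-like cells E2f3, Rbl1 and Cdk6 had pooled intervals above 0 and the D cyclin Ccnd2 one below 0, with log2 ratios for Ccnd2 of -0.73 and -0.43. In B-like cells 6 of 10 had pooled intervals above 0 (Rbl1, E2f1, Cdk6, Ccnd3, Cdk4 and E2f3) and 2 below 0, Myc and Ccnd2. Ccnd2 stood there at 1189 and 362 CPM in other and cycling cells of HAMS and at 753 and 393 CPM in HAMSAB. Pooled intervals lay above 0 for 9.84% and below 0 for 11.4% of all genes in T-like cells, and for 15.7% and 12.7% in B-like cells.

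**Figure D5:**
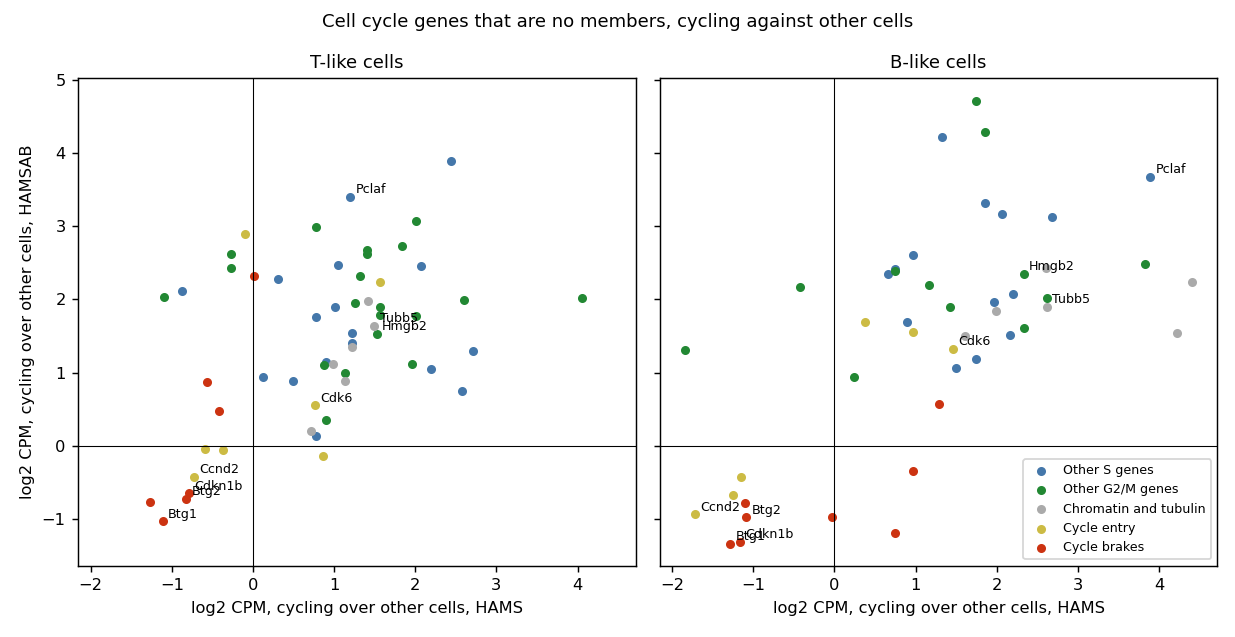
log2 ratios of CPM in cycling over other cells, HAMS on the x axis and HAMSAB on the y axis, for cell cycle genes that are no members, in T-like (left) and B-like cells (right); each point is a gene with at least 20 UMIs and a finite ratio in both libraries. S and G2/M genes lie in the upper right in both classes, and Btg1, Btg2, Cdkn1b and Ccnd2 lie in the lower left.

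Outside all lists, the 10 genes highest in cycling T-like cells by the interval bound nearest 0 were Hist1h1b, Dtl, Cep55, Kif15, Cdca2, Fam111a, Polh, Phgdh, Zfp367 and Nsd2. Hist1h1b, a linker histone gene, stood at 54.4 and 526 CPM in other and cycling cells of HAMS and at 40.6 and 509 CPM in HAMSAB. Dtl, which directs the licensing factor Cdt1 to destruction in S phase, stood at 18.1 and 228 CPM and at 33.8 and 243 CPM. Cep55, a protein of the final separation of daughter cells, had 0 UMIs in other T-like cells of either library and 50.7 and 69.3 CPM in cycling cells. The 5 lowest were Iigp1, Tnfsf8, Gimap6, Mxd1 and Slc25a36. Mxd1, an antagonist of Myc, stood at 507 and 180 CPM in HAMS and at 812 and 307 CPM in HAMSAB, and Tnfsf8, the CD30 ligand, at 145 and 45.0 CPM and at 568 and 142 CPM.

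Cycling lymphocytes also differed from the others in genes of cell state. In HAMSAB, cycling B-like cells held more UMIs of 3 genes, chosen after their values were seen, that are known from the germinal centre, the site where activated B cells divide: Mef2b with 1 and 53 UMIs in other and cycling cells (log2 ratio 4.53, 1.99 to 9.86), Bcl6 with 6 and 57 (2.05, 0.84 to 3.55) and S1pr2 with 3 and 24 (1.80, 0.082 to 4.18). In HAMS, Mef2b had 0 and 13 UMIs, Bcl6 3 and 20 and S1pr2 0 and 7, all with intervals that include 0. Fas, a death receptor that germinal centre B cells also carry, had 0 and 5 UMIs in HAMS and 5 and 16 in HAMSAB, with intervals that include 0 in both. Ighd, the delta heavy chain of naive B cells, had 7 and 0 UMIs in HAMS and 23 and 9 in HAMSAB (-2.55, -3.85 to -1.39), both below 0. In T-like cells Pdcd1, the checkpoint receptor PD-1, was lower in cycling cells of HAMS (109 and 19.7 CPM) and HAMSAB (81.2 and 22.5 CPM). These levels rest on few UMIs, 6 and 7 in HAMS and 12 and 13 in HAMSAB. Cd4 was lower in HAMSAB (122 and 34.7 CPM), and its interval in HAMS included 0 (-1.23, -2.98 to 0.88). Tox, Il2ra and Gzmb had intervals that include 0 in both libraries.

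The summed level of Ins2 RNA differed between cycling and other lymphocytes as well, in opposite directions between libraries for T-like cells. Ins2 stood at 3189 CPM in other and 1998 CPM in cycling T-like cells of HAMS, but at 447 and 4052 CPM in HAMSAB. The share of T-like cells with any beta marker UMI, Ins2 included, differed little. It was 40.9% of other and 42.8% of cycling cells in HAMS, and 21.7% and 24.7% in HAMSAB. In B-like cells Ins2 was lower in cycling cells of both, at 1231 and 451 CPM and at 3240 and 1309 CPM. Cells that share a droplet with an endocrine cell were not removed, and the part of hormone RNA in the results was not tested. The authors' deposited tables of comparisons, 8 in number, hold 375 gene entries in all and list 0 of the 36 members.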

How the data were processed

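The deposited values are raw counts of UMIs per gene and barcode, written by Cell Ranger 5.0.0 per the file headers, with no normalization by the authors. The submitters' processing notes name mm10, GRCm38 and Seurat, and the annotation release is not given in the sources used here. Tables with a log2 fold change and a p-value per gene, both computed by the authors from cells, were deposited too and were searched for the members only.

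Both libraries were clustered together with scanpy 1.11.5 on 2000 variable genes, from which the members and the other cell cycle genes were left out, by the Leiden method (igraph 0.11.9, resolution 1) on a graph of 15 neighbours in 30 principal components. A name needed at least 3 fixed markers, each in 5% of the cells, and 1 among the 10 leading genes. Scrublet marked 4 cells (0.0454%), which was taken as a failed call, so doublets were kept. UMIs were summed per class and library. Intervals are Clopper-Pearson for shares, exact Poisson for CPM, exact conditional binomial for log2 ratios and Newcombe for differences of shares. Ratios were read for genes with at least 20 UMIs. No test was made between diets, and the scripts were checked on simulated counts.

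The members and all lists were chosen with earlier results of these data known. Named are the members with the most UMIs or an interval off 0, the extremes of each list and, outside the lists, the 10 highest and 5 lowest genes in cycling T-like cells with at least 50 UMIs. The cell state genes, limits of 5 and 10 UMIs and hormone values were picked after their values were seen. A gene of the B cell subset list is not reported here.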

Additional observations from a re-analysis of the deposited data

Results flagged for a closer look

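Within 3 classes the share of cycling cells differed between the diets by more than its counting interval, in opposite directions, and with 1 library per diet none of the differences was tested. In T-like cells the share was lower in HAMSAB, by -7.40 percentage points (-13.3 to -1.17), and the difference was -0.0625 points after thinning to 500 UMIs, -3.92 (-9.00 to 1.88) among cells of 500 or more genes, and -7.09 (-14.0 to 0.30) when classes were set per cell from marker UMIs. In cDC-like cells the share was higher in HAMSAB by 12.3 points (3.88 to 19.9), and by 13.3 (-7.59 to 30.7) with at least 500 genes per cell. In beta-like cells it was higher by 2.12 points (0.41 to 4.09), and its interval included 0 with at least 500 genes per cell (1.68, -2.04 to 5.63) and when classes were set per cell from marker UMIs (1.66, -0.18 to 3.83).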

How the results depend on the processing

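No alternative turned the sign of a difference whose interval excluded 0. Signs turned among differences whose intervals included 0, as in the S share with at least 500 genes per cell, from -8.69 to 6.05 points in macrophage-like cells and from -1.18 to 9.52 in cluster 3, and in the cycling share from 0.14 to -0.49 in cluster 3 with 3 or more UMIs and from 5.85 to -2.34 in plasma-like cells with G2/M members alone. Of 110 values for the share of cycling cells, 103 stayed within the interval of the reported value, as did 49 of 55 for the summed CPM and 61 of 65 for the S share. With at least 500 genes per cell, the difference in cycling share was 17.2 percentage points over all cells, 5.48 in cluster 3, 4.82 in delta-like, 11.5 in ductal-like and 8.18 in macrophage-like cells, the T-like, beta-like and cDC-like intervals included 0, and that of B-like cells no longer did (-10.1, -16.4 to -1.59). The log2 ratio of summed CPM under that filter was 0.12 in T-like cells, 1.13 in alpha-like cells and 0.69 in cluster 3, and the S share differed by -45.1 points in alpha-like cells. With G2/M members alone, the difference over all cells was 7.96 points. Thinned to 500 UMIs, it was -0.0625 points in T-like cells, and 31 of 37 further S and G2/M genes in T-like and 23 of 26 in B-like cells were higher in cycling cells of both libraries, since fewer genes reached 20 UMIs. With each cell weighted equally, the log2 ratio was -0.085 in T-like cells and 0.040 in cluster 3. With classes set per cell from its markers, it was 1.19 in plasma-like cells, and the S share differed by -14.0 points in beta-like cells. In beta-like cells, 9 members had an interval off 0 with no UMI minimum and 1 with a minimum of 50 UMIs, against 3 as reported. The cause of these shifts was not tested, apart from the smaller number of genes or cells each setting leaves. Reclustering gives no value for the unnamed clusters or for all cells, and no plasma-like cluster formed when cell cycle genes were kept in. No paired analysis was possible because each diet has 1 library.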

Other observations

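Promoter words were also read in cell cycle genes that are no members. Of 23 further S genes with a RefSeq window, 7 held an E2F word (30.4%) and 4 the CHR word (17.4%), and of 35 further G2/M genes, 4 held an E2F word (11.4%) and 25 the CHR word (71.4%), where 1.80% and 20.2% of all genes held these words. Spc25, a kinetochore gene outside the members, stood at 24.0 CPM in HAMS and 79.8 CPM in HAMSAB in beta-like cells and at 26.6 and 24.7 CPM in T-like cells. It lies next to G6pc2, a beta cell gene that stood at 1112 and 1631 CPM in beta-like cells. The 2 genes lie on opposite strands and do not overlap, and a part of G6pc2 RNA in the Spc25 UMIs was not tested.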
